A study of Bos taurus and Sus scrofa with 6 samples.

Results

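VEGF and angiopoietin signalling was followed through 7 genes chosen by symbol: VEGFA, KDR, FLT1, TIE1, TEK, ANGPT1 and ANGPT2. All 7 were among the 22694 genes of the pig table and 6 among the 19994 genes of the cattle table. VEGFA was not analysed here in cattle, for want of a row under that symbol. The cells came from prepubertal testes removed at castration: those of 3 Holstein cattle, which were 4.5 months old, and those of 3 pigs of mixed breed, which were 3 months old. Each library held unsorted testicular cells of 1 animal, with about 8000 live cells loaded. The titles number the testes 1, 2 and 2 in each species and end in a different code for each, so the animals are called 1 to 3 in order of deposit.

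VEGFA is the main secreted growth factor of blood vessels. KDR (VEGF receptor 2) carries most of its signal in endothelial cells, whereas FLT1 (VEGF receptor 1) binds it tightly and signals weakly. In the angiopoietin branch, TEK (the receptor TIE2) is activated by ANGPT1, which is usually made by cells around the vessel. ANGPT2 competes with ANGPT1 at TEK in many settings, and TIE1 is the partner receptor of TEK. Testicular vessels run in the interstitium, beside Leydig and peritubular cells, and do not enter the seminiferous tubules.

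The bases ahead of the annotated starts of KDR, FLT1 and TEK are shown because these receptors were high together in pig endothelial-like cells. They were read from the pig genome Sscrofa11.1 with the gene starts of NCBI RefSeq, run 5′ to 3′ on the gene's strand and end at the base before the start. Capitals mark matches on either strand to any of the 4 motifs searched: the ETS core CCGGAA, the GATA site AGATAA, the SP1 box GGGCGG and the hypoxia response core ACGTG.
KDR, chr8:41856380-41856629, minus strand: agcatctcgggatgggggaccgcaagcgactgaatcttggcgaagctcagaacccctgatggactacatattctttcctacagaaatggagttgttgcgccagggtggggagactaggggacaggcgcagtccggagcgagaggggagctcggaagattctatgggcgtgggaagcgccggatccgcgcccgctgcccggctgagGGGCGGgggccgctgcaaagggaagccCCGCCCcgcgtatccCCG
FLT1, chr11:5797096-5797345, minus strand: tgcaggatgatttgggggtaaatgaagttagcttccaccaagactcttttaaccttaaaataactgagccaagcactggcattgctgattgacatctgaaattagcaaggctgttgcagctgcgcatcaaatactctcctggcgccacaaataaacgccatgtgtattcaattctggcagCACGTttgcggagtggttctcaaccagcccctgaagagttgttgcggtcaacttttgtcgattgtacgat
TEK, chr1:196052295-196052544, minus strand: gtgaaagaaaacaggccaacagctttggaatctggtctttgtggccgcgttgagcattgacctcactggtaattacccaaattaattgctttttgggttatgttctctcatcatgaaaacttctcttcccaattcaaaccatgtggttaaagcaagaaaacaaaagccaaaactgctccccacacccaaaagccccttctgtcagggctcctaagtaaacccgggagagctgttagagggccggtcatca

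In the window from 250 bases before to 50 bases after the start, KDR held 3 SP1 boxes, at bases -45, -18 and -3, of which the last runs past the start and is shown in part. FLT1 held 1 hypoxia core, at base -70. The windows of TEK, TIE1, ANGPT1, ANGPT2 and VEGFA held none of these letters. Of 19556 pig promoters of this length, 50.6% held an SP1 box, 22.3% a hypoxia core, 17.8% an ETS core and 9.17% a GATA site. The KDR window was 65.0% G or C, against a median of 58.7% over those promoters.

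After likely doublets were left out, 17482 cattle and 9206 pig cells remained. The libraries were unequally deep, with 3342000 to 32956134 UMIs (unique molecular identifiers, which count RNA molecules) in cells in cattle and 4357202 to 20732293 in pig, and animal 1 was the shallowest of each species. Many clusters were made up largely of 1 library, but the cattle endothelial-like, germ-like and macrophage-like clusters were mixed. Any pair of libraries shared 9 to 61 cell barcodes, at most 1.21% of the smaller library. Clusters were named from marker genes, and neither the 7 genes nor 27 further pathway genes took part in clustering or naming.

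Cattle 1, 2 and 3 held 26, 64 and 47 endothelial-like cells, an even share of 0.755% to 0.797% of each library. Pigs 1, 2 and 3 held 3, 360 and 324, or 0.0949%, 9.45% and 14.5%, so the pig levels rest on pigs 2 and 3. The summed level of the endothelial markers was 2896 to 4905 CPM (UMIs per 1000000 UMIs of the cell type in that animal) in cattle, over 13 markers, and 2445 to 4565 CPM in pig, over 14 markers. SOX17 and MMRN2 had 0 UMIs in cattle cells of any type. PLVAP had 145 UMIs in cattle cells but 0 in the endothelial-like ones. Each of the 14 was present in pig. The same sum reached 986 to 1535 CPM in cattle myoid and stromal-like cells, where the receptor component RAMP2 made up most of it, at 1246 CPM on average. CLDN5, a tight junction protein of endothelium, separated those cells, at a mean of 1329 CPM in endothelial-like against 1.92 CPM in myoid and stromal-like cells.

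**Figure D1:**
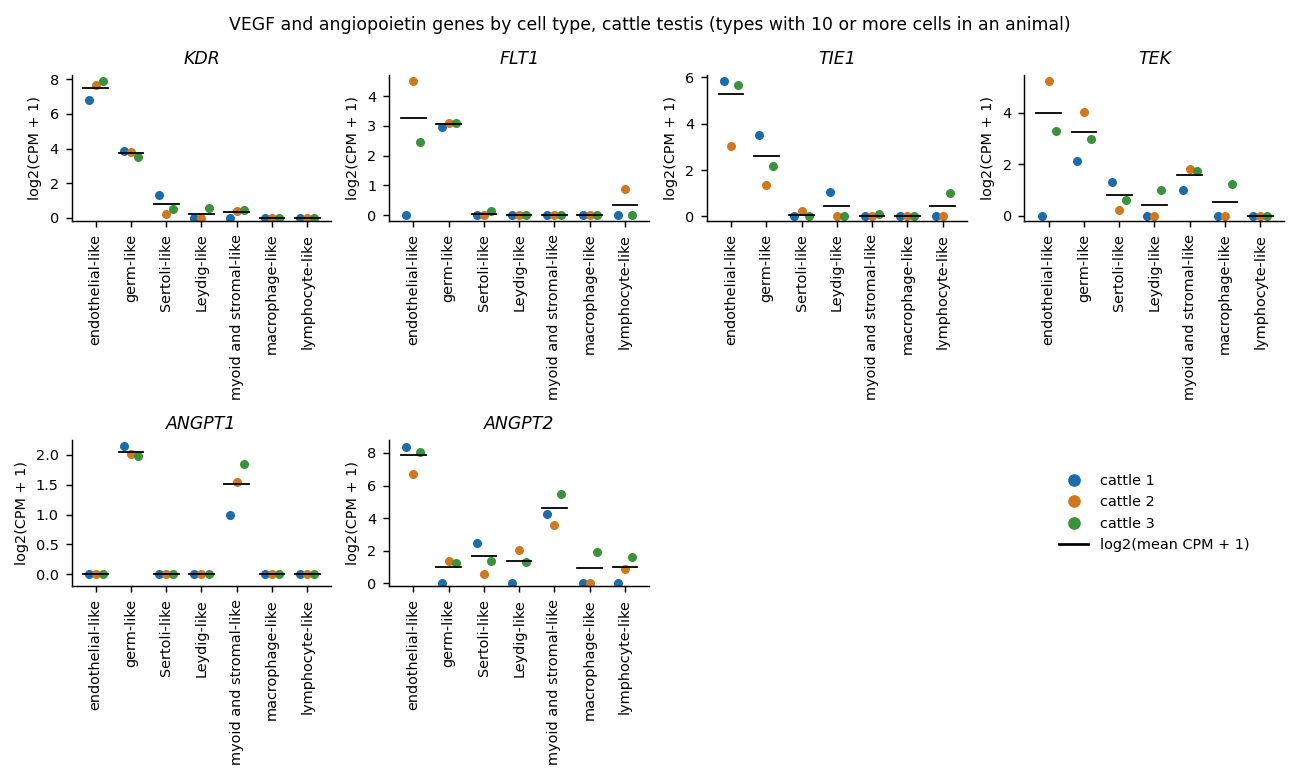
Level of 6 genes in each cattle cell type, as log2(CPM + 1), with 1 point per animal and a line at the mean CPM on that scale. KDR stood at 111 to 236 CPM in endothelial-like cells and at 10.4 to 13.6 CPM in germ-like cells, above all other types.

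**Figure D2:**
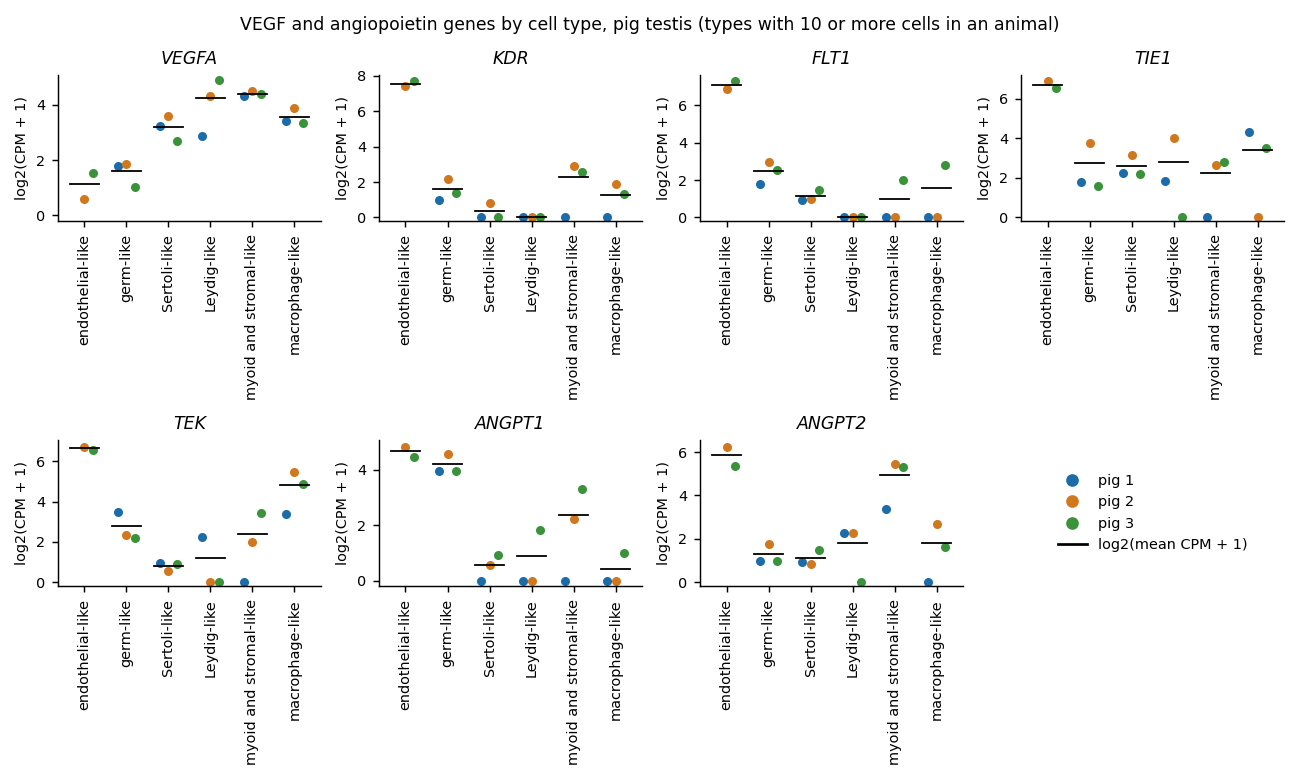
Level of the 7 genes in each pig cell type, as log2(CPM + 1), with 1 point per animal that had at least 10 cells of the type and a line at the mean CPM on that scale. KDR, FLT1, TIE1 and TEK were above 90 CPM in endothelial-like cells of pigs 2 and 3 and below 45 CPM in every other type, whereas VEGFA was at most 1.87 CPM there.

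KDR marked the endothelial-like cells of both species. In cattle it stood at 111, 203 and 236 CPM in animals 1, 2 and 3, from 2, 28 and 53 UMIs. No other cattle type passed 13.6 CPM in any animal, so the ranges did not overlap. Against all other cells, summed per animal, KDR was 117-fold higher (log2 6.88, SE 0.467, n = 3, edgeR quasi-likelihood adjusted p = 9.05e-06). In pigs 2 and 3 it stood at 167 and 204 CPM, and no other named type passed 6.63 CPM. The pig difference was 75.4-fold (log2 6.24, SE 0.676, edgeR adjusted p = 3.86e-05, and 0.0027 without pig 1).

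The share of endothelial-like cells with a KDR UMI was 51.9% in pig 2 and 69.4% in pig 3, at median depths of 4513.5 and 6526.5 UMIs. In their Leydig-like cells, at median depths of 2982 and 3951.5 UMIs, it was 0%. After each cell was thinned to 500 UMIs, KDR was seen in 8.06% and 8.02% of the endothelial-like cells, so the shares of both pigs were alike at equal depth.

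FLT1, the tight-binding VEGF receptor, was as restricted in pig but rare in the cattle endothelial-like cells as a whole. In pigs 2 and 3 it reached 117 and 156 CPM, with at most 6.72 CPM in any other named type, and was 42.0-fold higher (log2 5.39, SE 0.572, edgeR adjusted p = 3.51e-05, and 0.00439 without pig 1). Only 4 FLT1 UMIs lay in cattle endothelial-like cells, giving 0, 21.7 and 4.45 CPM, a range that overlapped germ-like cells. All 4 lay outside the sub-clusters rich in lymphatic markers described below, which held most of these cells. The cattle difference of log2 3.61 (SE 0.977, 95% interval 1.48 to 5.74) missed the threshold in edgeR (adjusted p = 0.0621). It passed without cattle 1 (adjusted p = 0.041) and was log2 2.14 without cattle 2 (adjusted p = 0.81).

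TIE1 was called in both species, on few cattle UMIs. Cattle showed 55.7, 7.25 and 49.0 CPM, from 1, 1 and 11 UMIs, and cattle 2 lay within the germ-like range. TIE1 was 54.2-fold higher than in other cattle cells (log2 5.76, SE 0.89, edgeR adjusted p = 0.00287). In pigs 2 and 3 it stood at 116 and 90.5 CPM, above every other named type, and was 21.4-fold higher (log2 4.42, SE 0.484, edgeR adjusted p = 4.17e-05, and 0.00979 without pig 1).

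TEK, the angiopoietin receptor, stood at 105 and 92.3 CPM in pigs 2 and 3. It was 17.7-fold above other pig cells (log2 4.15, SE 0.461, edgeR adjusted p = 4.61e-05, and 0.00785 without pig 1). Cattle gave 0, 36.2 and 8.91 CPM from 7 UMIs, overlapping germ-like cells. The cattle difference of log2 3.13 (SE 0.811) missed the threshold in edgeR (adjusted p = 0.0517) but passed with the animal as a replicate block, which pairs the cells of a testis (log2 2.99, adjusted p = 0.0147), where 3.48% of all genes passed as higher. It also passed without cattle 1 (adjusted p = 0.0193) or cattle 3 (0.0493), and was log2 2.12 without cattle 2 (0.702).

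ANGPT2, the regulated ligand of TEK, was high in endothelial-like cells too. Cattle showed 334, 101 and 263 CPM, and pigs 2 and 3 showed 75.7 and 39.6 CPM. The next type was myoid and stromal-like, clear of the endothelial range in cattle and overlapping it in pig. ANGPT2 was 16.1-fold higher than in other cells in cattle (log2 4.01, SE 0.567, edgeR adjusted p = 0.00156). In pig it was 16.3-fold higher (log2 4.03, SE 0.504, edgeR adjusted p = 0.00011, and 0.00968 without pig 1). When cattle cells were taken by at least 3 endothelial markers in place of clusters, ANGPT2 was log2 1.14 higher and not called (adjusted p = 0.211).

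ANGPT1, which activates TEK, had no UMI in the cattle endothelial-like cells. That allows up to 2.19% of the 137 cells to carry a UMI at median depths of 639 to 4586 UMIs, and sets no limit on the share that expressed a gene at so low a level. Pigs 2 and 3 showed 27.7 and 21.3 CPM, 3.69-fold above other cells (log2 1.88, SE 0.407, edgeR adjusted p = 0.00524). That call was lost without pig 1 (log2 1.82, adjusted p = 0.0694) and with DESeq2 (adjusted p = 0.271). It passed without pig 1 when the animals were a replicate block (adjusted p = 1.29e-05), where 13.9% of all genes passed as higher.

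VEGFA was nearly absent from the pig cells that carried its receptors. Endothelial-like cells held 6 of its 269 UMIs, at 0.494 and 1.87 CPM in pigs 2 and 3. The difference of log2 -2.06 (SE 0.721) missed the threshold in edgeR (adjusted p = 0.0556) and passed with the replicate block (log2 -1.98, adjusted p = 0.000328), where 24% of all genes passed as lower. It was log2 -0.91 without pig 2 (adjusted p = 0.456) and log2 -3.71 without pig 3 (adjusted p = 0.00916).

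In all, 3 of 6 cattle genes (KDR, TIE1 and ANGPT2) and 6 of 7 pig genes (all but VEGFA) passed as higher in endothelial-like cells. Among all genes tested, 2.23% passed as higher in cattle and 9.22% in pig. The median log2 difference was 3.81 over the cattle members tested and 4.15 over the pig members, against -0.86 and -0.34 over all genes. The replicate block raised the calls over all genes from 616 to 1173 in cattle and from 3336 to 5791 in pig. With library size alone as scaling, 65.1% of the cattle calls were higher in place of 51.1%, and 31.7% of the pig calls in place of 42.0%, without a change of sign among the members.

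**Figure D3:**
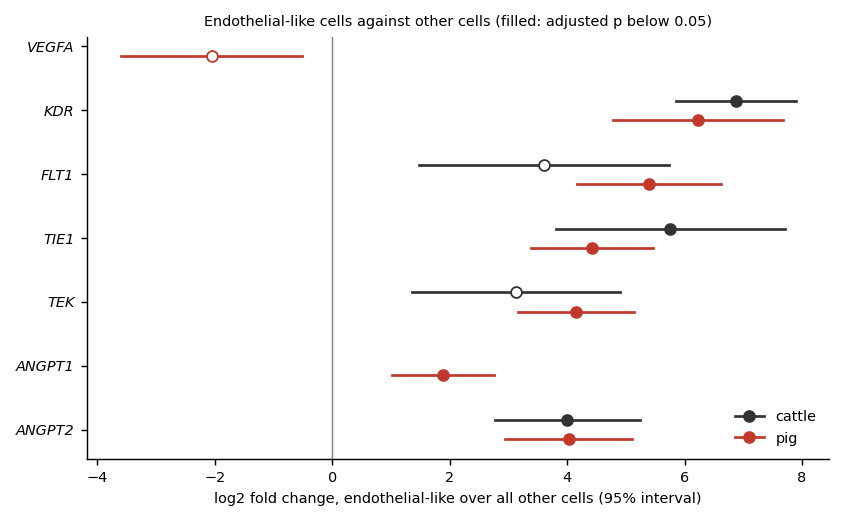
Log2 fold change of each gene in endothelial-like cells over all other cells, with 95% intervals, in cattle (black) and pig (red), filled where the adjusted p was below 0.05. KDR lay at 6.88 and 6.24 and pig VEGFA at -2.06; cattle ANGPT1, at 0 UMIs, is not drawn.

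Receptor UMIs were found in the same pig cells. In pig, 76 of 687 endothelial-like cells (11.06%) carried UMIs of KDR, FLT1, TIE1 and TEK together, and 78 (11.4%) carried none of the 4. In cattle 82 of 137 cells (59.9%) carried none and 1 carried 3 of them. These shares move with depth and were not compared between species.

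Sub-clusters rich in the lymphatic markers PROX1, LYVE1 and MMRN1 made up 109 of the 137 cattle cells but 23 of the 687 pig cells. By animal they numbered 23, 46 and 40 in cattle and 1, 9 and 13 in pig. CCL21, a chemokine of lymphatic vessels, stood at 14680 CPM in these cattle cells and 66630 CPM in these pig cells. In pig it was not confined to them. CCL21 was also among the leading genes of pig sub-clusters of 57 and 166 cells that were named other endothelial-like. Levels of sub-clusters are given over all animals with exact Poisson 95% intervals, which cover counting error only, and were not tested.

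KDR was present on both sides of this split. In cattle it stood at 194 CPM (147 to 252) in lymphatic-like and 295 CPM (194 to 429) in other endothelial-like cells, and in pig at 236 CPM (150 to 355) and 187 CPM (175 to 200). FLT1 was low in lymphatic-like cells, with 0 UMIs and an upper limit of 12.8 CPM in cattle, against 43.6 CPM (11.9 to 112) in the others. Pig FLT1 stood at 20.6 CPM (2.49 to 74.2) in lymphatic-like cells against 142 CPM (131 to 153) in the others.

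The co-receptors had opposite orders. NRP1, a VEGF co-receptor of blood vessels, was at 0 CPM in cattle lymphatic-like cells and 32.7 CPM (6.75 to 95.7) in the others, and at 20.6 CPM (2.49 to 74.2) and 231 CPM (217 to 245) in pig. NRP2, known from lymphatic vessels, was at 48.5 CPM (26.5 to 81.3) and 0 CPM in cattle, and at 360 CPM (250 to 500) and 55.6 CPM (49.0 to 62.9) in pig. The intervals of FLT1, NRP1 and NRP2 did not overlap in pig and overlapped in cattle.

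In the angiopoietin branch, TEK stood at 6.92 CPM (0.839 to 25.02) in cattle lymphatic-like cells and 54.6 CPM (17.7 to 127) in the others. In pig it stood at 51.4 CPM (16.7 to 120) and 98.8 CPM (89.96 to 108), and the TEK intervals overlapped in both species. TIE1 was 206 CPM (126 to 317) in pig lymphatic-like cells and 99.5 CPM (90.6 to 109) in the others.

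ANGPT2 had 78 of its 79 cattle endothelial UMIs in lymphatic-like cells, at 365, 155 and 313 CPM in cattle 1, 2 and 3. The other cattle endothelial-like cells held 1 UMI, at 10.9 CPM (0.276 to 60.8). In pig the order was the other way, at 10.3 CPM (0.26 to 57.2) in lymphatic-like cells, from 1 UMI, and 56.0 CPM (49.4 to 63.3) in the others, with overlapping intervals. With lymphatic-like cells left out, an alternative chosen after seeing the data, the cattle ANGPT2 difference was log2 -0.61 (SE 1.51, edgeR adjusted p = 0.893). TIE1 also lost its cattle call (log2 4.78, adjusted p = 0.253), and FLT1 gained one (log2 5.13, adjusted p = 0.0309), where 0.644% of all genes passed as higher. The mural markers summed to 0, 290 and 13.4 CPM in the endothelial-like cells of cattle 1, 2 and 3, and their part in these values was not tested.

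**Figure D4:**
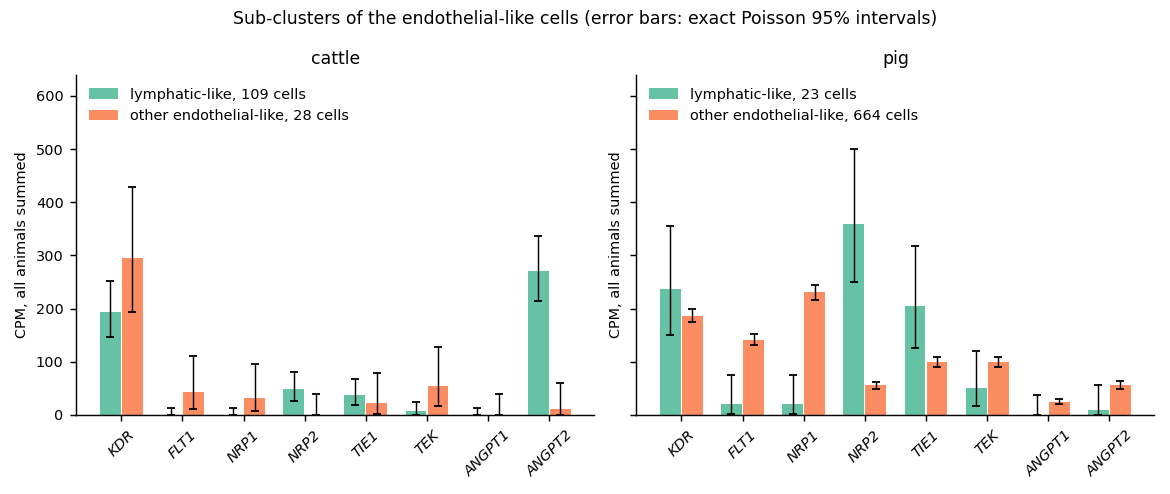
Level in CPM of 8 genes in lymphatic-like (green) and other endothelial-like cells (orange) of cattle and pig, animals summed, with exact Poisson 95% intervals. FLT1 and NRP1 were lower and NRP2 higher in the lymphatic-like cells of both species, with overlapping intervals in cattle, and cattle ANGPT2 stood at 270 against 10.9 CPM.

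Cattle germ-like cells, 520 in number, held the next highest levels of the receptors. KDR stood at 13.6, 12.9 and 10.4 CPM, FLT1 at 6.82, 7.61 and 7.50 CPM, and TEK at 3.41, 15.2 and 6.97 CPM in cattle 1, 2 and 3. The FLT1 levels came from 2, 10 and 28 UMIs, so how even it was across the animals is poorly measured. Of its 46 cattle UMIs, 40 lay here, in 21 germ-like cells. FLT1 was higher than in all other cells (log2 4.58, SE 0.723, edgeR adjusted p = 0.000684), with each animal left out in turn as well (adjusted p at most 0.0313). KDR (log2 1.54, SE 0.445, edgeR adjusted p = 0.0167) and TEK (log2 1.75, SE 0.563, edgeR adjusted p = 0.0273) also passed, and both calls were lost without cattle 2 (0.149 and 0.29) or cattle 3 (0.104 and 0.116). TIE1, at 10.2, 1.52 and 3.48 CPM, passed only with the replicate block (log2 2.01, adjusted p = 0.00993, against 0.0548), where 30.4% of all genes passed as higher. ANGPT2, at 0, 1.52 and 1.34 CPM, was lower (log2 -4.39, SE 0.721, edgeR adjusted p = 0.00086). Of all genes, 23.2% passed as higher and 26.7% as lower in this comparison, and with library size alone 77.5% of the calls were higher in place of 46.5%.

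Endothelial markers were measured beside these values. VWF, the clotting factor carrier of blood endothelium, had a mean of 14.1 CPM in the germ-like and in the endothelial-like cells. ERG stood at 10.2 against 45.5 CPM, ESAM at 8.65 against 31.9 CPM, CLEC14A at 11.9 against 197 CPM, EMCN at 2.18 against 280 CPM and PECAM1 at 1.24 against 169 CPM. Endothelial markers thus differed widely in this ratio, and the part of endothelial RNA in the germ-like values was not tested. Over all cattle, CLDN5 stood at 3.56 CPM in the germ-like against 1430 CPM in the endothelial-like cells, and the ratio of KDR to CLDN5 UMIs was 3.16 against 0.153. In 594497 cattle barcodes with at most 50 UMIs, KDR stood at 2.01 CPM (0.807 to 4.14), FLT1 at 0.573 CPM (0.0695 to 2.07), TEK at 1.15 CPM (0.313 to 2.94), PECAM1 at 2.58 CPM and VWF at 2.87 CPM. CLDN5 stood at 24.1 CPM there, but also at a mean of 33.2 CPM in Sertoli-like cells. By animal, the intervals of these barcodes held the germ-like TIE1 levels of cattle 2 (0.0154 to 3.39 CPM) and cattle 3 (0.0305 to 6.71 CPM). They also held the germ-like TEK level of cattle 1 (0 to 3.635 CPM), but no germ-like KDR or FLT1 level. The part of free RNA in the germ-like levels was not tested. Of 54 germ-like cells with a KDR UMI, 20 had no UMI of 12 endothelial markers and 3 had at least 3 of them. After thinning, FLT1 was left in 2 of 520 germ-like cells, and no share was read from it. With endothelial-like cells left out of the other cells, an alternative chosen after seeing the data, KDR was log2 3.95 (edgeR adjusted p = 0.000214) and FLT1 log2 5.97 (edgeR adjusted p = 0.000127) higher in germ-like cells. TIE1 was log2 3.60 (adjusted p = 0.00654) and TEK log2 1.91 (adjusted p = 0.0185) higher in that comparison, where 23.3% of all genes passed as higher.

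In pig germ-like cells the member with most UMIs was ANGPT1. Its level was 14.7, 22.8 and 14.7 CPM in pigs 1, 2 and 3, overlapping endothelial-like cells, and 278 of its 436 UMIs lay here. The difference of log2 1.48 missed the threshold in edgeR (adjusted p = 0.16), passed with the replicate block (log2 1.75, adjusted p = 0.042), and passed with endothelial-like cells left out (log2 2.85, adjusted p = 0.0146). Of all genes, 17.1%, 21.9% and 16.2% passed as higher in these 3 comparisons. The ratio of KDR to ANGPT1 UMIs was 0.119 here against 7.82 in endothelial-like cells. VEGFA (log2 -2.46, edgeR adjusted p = 0.00823), KDR (log2 -4.20, 0.0248) and ANGPT2 (log2 -3.48, 0.00875) were lower, where 20.2% of all genes passed as lower. All 3 calls were lost without pig 2, and those of KDR and ANGPT2 also without pig 3. KDR was not called lower once endothelial-like cells were left out (log2 -1.07, adjusted p = 0.386).

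Outside the endothelial-like cells, most cattle angiopoietin UMIs lay in myoid and stromal-like cells. ANGPT2 stood at 17.8, 10.6 and 43.3 CPM in cattle 1, 2 and 3 and was higher than in other cells (log2 2.87, SE 0.555, edgeR adjusted p = 0.00635), where 13.8% of all genes passed as higher. Without cattle 3, which held 581 of the 666 UMIs, it was log2 2.13 (adjusted p = 0.0936). ANGPT1 stood at 0.989, 1.91 and 2.61 CPM, with 48 of its 64 cattle UMIs, and was log2 2.41 higher (SE 0.534, edgeR adjusted p = 0.0112), a call lost without cattle 2 (0.178) or cattle 3 (0.206). In germ-like cells ANGPT1 stood at 3.41, 3.05 and 2.95 CPM, from 1, 4 and 11 UMIs, and was not called (log2 0.70, edgeR adjusted p = 0.358). The myoid and stromal-like levels came from 1, 12 and 35 UMIs, too few to order these types. In barcodes with at most 50 UMIs, which hold free RNA, ANGPT1 stood at 0, 0 and 2.41 CPM in cattle 1, 2 and 3. Its intervals were 0 to 3.635, 0 to 2.247 and 0.292 to 8.70 CPM. ANGPT2 stood at 4.93, 8.53 and 9.63 CPM there (4.66 to 14.3 in cattle 2). The intervals of ANGPT1 in all 3 animals and of ANGPT2 in cattle 2 thus held the myoid and stromal-like levels. The part of free RNA in the myoid and stromal-like levels was not tested. KDR (log2 -3.36, adjusted p = 0.00362) and TIE1 (log2 -3.98, adjusted p = 0.0274) were lower, and FLT1 had no UMI in these cells (adjusted p = 0.00879), where 16.9% of all genes passed as lower. These 3 calls were lost without cattle 2, and those of KDR and FLT1 also without cattle 3.

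In pig myoid and stromal-like cells ANGPT2 stood at 9.40, 42.7 and 38.4 CPM. Its difference of log2 2.25 (SE 0.662) missed the threshold in edgeR (adjusted p = 0.0972), where 2.72% of all genes passed as higher. It passed with the replicate block (log2 2.11, adjusted p = 2.39e-06) and with endothelial-like cells left out (log2 3.86, adjusted p = 0.0031), where 8.49% and 3.53% of all genes passed as higher.

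VEGFA was spread over pig cells outside the endothelium. Its mean level was 19.9 ± 1.302 CPM (SD, n = 3) in myoid and stromal-like, 17.8 ± 10.97 CPM in Leydig-like, 10.8 ± 2.57 CPM in macrophage-like and 8.24 ± 2.80 CPM in Sertoli-like cells. Germ-like cells had 2.04 ± 0.872 CPM and endothelial-like cells 1.18 ± 0.972 CPM (n = 2). Free RNA was not measured in pig, so its part in these low levels was not tested. Of neighbours in this order of levels, Sertoli-like and germ-like cells alone had ranges that did not overlap. Sertoli-like cells, the most numerous, held 126 of the 269 UMIs, of which 111 came from pig 2. In pig 3 they held 6 of 76 UMIs, fewer than myoid and stromal-like (20), macrophage-like (18) or germ-like cells (12). Against other cells, VEGFA passed with the replicate block in myoid and stromal-like (log2 1.93, adjusted p = 0.000378, against 0.0892), Leydig-like (log2 1.75, 0.014, against 0.153), Sertoli-like (log2 1.19, 0.0267, against 0.0658) and macrophage-like cells (log2 1.57, 0.0249, against 0.164). Of all genes, 8.49%, 9.95%, 17.9% and 11.6% passed as higher in these blocked comparisons.

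TEK had a second place in pig macrophage-like cells, at 9.49, 44.0 and 28.8 CPM in pigs 1, 2 and 3, below the endothelial range. The difference of log2 1.61 (SE 0.515) missed the threshold in edgeR (adjusted p = 0.0626), where 7.09% of all genes passed as higher, and passed with the replicate block (log2 1.45, adjusted p = 0.00379), where 11.6% did. With endothelial-like cells left out it was log2 2.99 (adjusted p = 0.00203), where 8.31% of all genes passed as higher. The ratio of KDR to TEK UMIs was 0.0541 here and 1.92 in endothelial-like cells, and 31 of 62 cells with a TEK UMI had no UMI of 13 endothelial markers. Cattle macrophage-like cells held 1 TEK UMI, and the difference between species was not called (log2 3.04, SE 1.28, adjusted p = 0.283). ANGPT1 was lower in pig macrophage-like cells (log2 -3.16, SE 0.892, edgeR adjusted p = 0.038), where 5.6% of all genes passed as lower, a call lost without any single pig.

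Sertoli-like cells, which line the avascular tubule, were low in most of the genes. In cattle KDR (log2 -2.77, adjusted p = 0.0115), FLT1 (log2 -3.54, 0.0181) and ANGPT2 (log2 -3.02, 0.0101) were lower, and ANGPT1 had no UMI (0.01), where 19.4% of all genes passed as lower. In pig KDR (log2 -5.05, adjusted p = 0.0323), FLT1 (log2 -3.78, 0.0341), TEK (log2 -4.62, 0.00591), ANGPT1 (log2 -4.33, 0.00528) and ANGPT2 (log2 -3.29, 0.0479) were lower, where 14.4% passed as lower. Each of these calls was lost without animal 2 and without animal 3 of the species. The other cells in these comparisons included the endothelial-like cells, so the calls do not tell low levels here from high levels there. With endothelial-like cells left out, KDR was not called in either species (adjusted p = 0.0761 in cattle and 0.0933 in pig). Over all 6 alternatives tried, cattle KDR and pig KDR, FLT1 and ANGPT2 were each called in 3. The other members named here were each called in 4. Pig FLT1 ran from log2 -4.29 to -1.67 over these alternatives.

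In the remaining cattle types, ANGPT2 was lower in Leydig-like cells (log2 -2.59, SE 0.762, edgeR adjusted p = 0.0467), where 8.89% of all genes passed as lower, and the call was lost without any single animal. Lymphocyte-like cells had no KDR UMI (adjusted p = 0.0199) and less ANGPT2 (log2 -2.44, SE 0.731, edgeR adjusted p = 0.034), where 14.7% of all genes passed as lower. Both lymphocyte calls were lost without cattle 2 and without cattle 3.

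**Figure D5:**
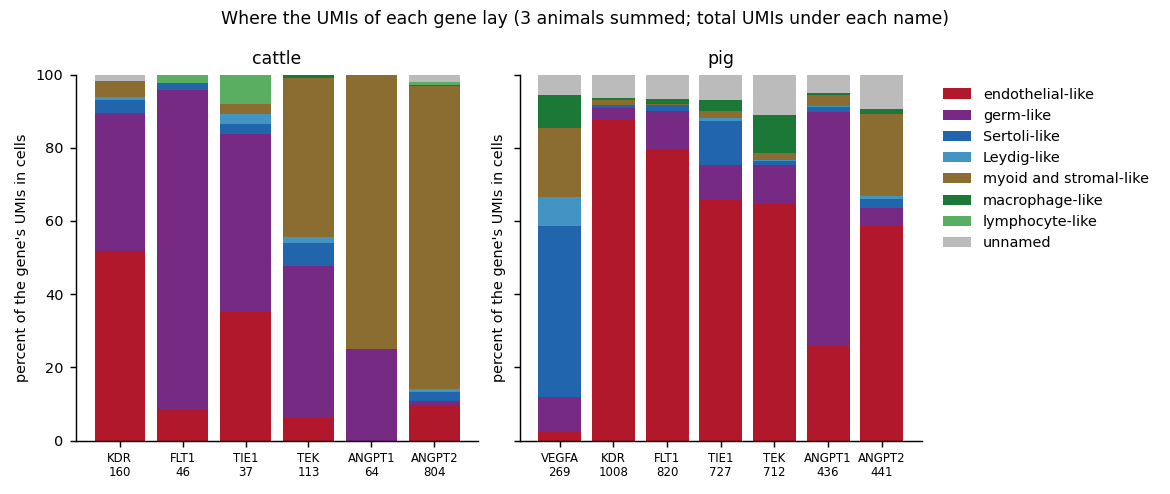
Share of each gene's UMIs held by each cell type, in percent of its UMIs in cells, 3 animals summed, with the total under each name. Endothelial-like cells held 87.7% of pig KDR UMIs and 51.9% of those in cattle, germ-like cells 87.0% of cattle FLT1 and 63.8% of pig ANGPT1, and myoid and stromal-like cells 82.8% of cattle ANGPT2.

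The cell type effects were then compared between species, over symbols found in both tables. For endothelial-like cells, without pig 1 and its 3 cells, no member differed in edgeR, where 1.01% of all genes did in either direction. The differences, as pig minus cattle on the log2 scale, were KDR -1.07 (95% interval -2.30 to 0.161), FLT1 1.40 (-0.388 to 3.19), TIE1 -1.89 (-3.84 to 0.057), TEK 0.94 (-0.795 to 2.67) and ANGPT2 -0.44 (-2.05 to 1.17). Unadjusted p ran from 0.0563 to 0.569 over the members, none under 0.05. ANGPT1, with 0 UMIs in cattle endothelial-like cells, is not listed. These intervals allow differences of several fold. Most of the cattle endothelial-like cells were lymphatic-like and few of the pig ones were. The part of that split in these differences was not tested.

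For germ-like cells the 4 receptors differed, all with the larger effect in cattle, where 6.45% of all genes differed in that direction. The difference was log2 -7.06 for FLT1 (SE 1.46, edgeR adjusted p = 0.0051), -5.56 for KDR (SE 1.38, 0.0133), -4.20 for TIE1 (SE 1.24, 0.0326) and -3.71 for TEK (SE 1.07, 0.0295). The germ-like levels themselves were closer than these differences. In pigs 1, 2 and 3 FLT1 stood at 2.45, 6.72 and 4.85 CPM and KDR at 0.981, 3.51 and 1.64 CPM. TIE1 stood at 2.45, 12.3 and 1.99 CPM and TEK at 10.3, 4.09 and 3.55 CPM there. Only the KDR and FLT1 ranges were clear of the cattle ones. For FLT1 that gap, 6.72 against 6.82 CPM, rested on 2 UMIs in cattle 1. Outside the endothelial-like cells the mean TIE1 level was 5.59 CPM in pig and 0.635 CPM in cattle, and that of FLT1 3.48 and 0.718 CPM. Levels of the species rest on different gene annotations and cannot be compared directly. The part of the other cells in these differences was not tested. With endothelial-like cells left out, FLT1 (log2 -5.71, adjusted p = 0.00498), KDR (log2 -4.85, 0.00898) and TIE1 (log2 -4.17, 0.0241) stayed past the threshold, and TEK did not (log2 -2.58, 0.105), where 6.01% of all genes differed with the larger effect in cattle. Leaving out single animals lost FLT1 without cattle 3 (0.0607) and KDR without cattle 2 (0.0658), cattle 3 (0.0674) or pig 3 (0.0711). TIE1 was lost without any of the cattle or pig 3, and TEK without cattle 2, cattle 3, pig 2 or pig 3. In myoid and stromal-like cells ANGPT1 differed (log2 -3.40, SE 0.823, edgeR adjusted p = 0.0392), where 2% of all genes did with the larger effect in cattle, and the call was lost without any single animal.

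Among the other genes of the pathway, the 3 targets tested were higher in endothelial-like cells of both species. ESM1, a secreted proteoglycan of VEGF-stimulated endothelium, was log2 8.07 higher in cattle and 5.85 in pig. DLL4, the Notch ligand of tip cells, was log2 6.40 and 6.28 higher, and NOS3, the endothelial nitric oxide synthase, log2 3.05 and 2.61. In cattle these calls rested on few cells, and 121 of the 195 NOS3 UMIs of all cattle cells lay in Sertoli-like cells. Of the cattle endothelial UMIs, lymphatic-like cells held 1 of 38 for ESM1, 0 of 11 for NOS3 and 5 of 16 for DLL4, and cattle 1 had none of any. PTPRB, the phosphatase that acts on TEK, was log2 4.74 higher in cattle and 4.61 in pig, the only one called of 8 signalling genes and regulators tested in cattle, of which PLCG1, SH2D2A, DOK2, FOXO1 and SPRY4 had no UMI in the endothelial-like cells. Cattle PTPRB had 6 UMIs in endothelial-like cells, at 0 to 22.3 CPM over the animals, and 21 of its 30 UMIs lay in germ-like cells. In pig 4 of 7 such genes were called, PTPRB with PLCG1 (log2 2.68), SHB (1.99) and SPRY4 (4.63). Over all genes, 2.23% passed as higher in cattle and 9.22% in pig in these comparisons.

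Of the further receptors, NRP2 was higher in both species (log2 4.74 and 4.30), and NRP1 in pig (log2 2.32, edgeR adjusted p = 0.00236) but not called in cattle (log2 1.60, adjusted p = 0.395). FLT4, the lymphatic VEGF receptor, had 9 UMIs in all cattle cells, 5 of them in lymphatic-like cells, and was not tested. Among the hypoxia regulators, EPAS1 (HIF-2 alpha) was higher in both (log2 4.97 and 2.06), and ARNT (2.31) and EGLN3 (2.93) in pig. Cattle EPAS1 ran from 0 to 362 CPM over the animals, with 16 of its 74 endothelial UMIs in lymphatic-like cells. No gene of these lists was called lower.

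None of the other ligands was called in endothelial-like cells, among 5 tested in cattle and 4 in pig. Of all genes, 2.23% and 9.22% passed as higher there. The highest mean levels of these ligands lay elsewhere: ANGPT4 at 55.0 ± 11.05 CPM in cattle myoid and stromal-like cells, overlapping Leydig-like cells at 52.1 ± 9.55 CPM, and at 52.8 ± 20.2 CPM in pig myoid and stromal-like cells, and VEGFB at 41.3 ± 11.9 CPM in cattle macrophage-like and 46.1 ± 17.0 CPM in pig Leydig-like cells. VEGFD stood at 22.2 ± 13.5 CPM in cattle Leydig-like cells, PGF at 14.8 ± 5.21 CPM in cattle myoid and stromal-like cells, and VEGFC at 17.8 ± 11.8 CPM in pig Leydig-like cells (SD, n = 3 each).

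The genes most alike in pattern were sought by Pearson's r over log2(CPM + 10) of 21 cattle and 17 pig sums of cell type and animal, which share libraries and are a description. For KDR they were UNC5B (0.987), BMP2 (0.975) and ADGRF5 (0.973) in cattle, and CCM2L (0.995), FAM124B (0.993) and COL13A1 (0.992) in pig. For pig FLT1 they were GPR4 (0.992), RGS16 (0.99) and THSD1 (0.988), and for pig TEK PDGFB (0.974), CYP2S1 (0.952) and TNFRSF11A (0.949). Pig TIE1 was followed by GPIHBP1 (0.921), IGF1R (0.918) and SLC16A13 (0.915), and cattle TEK by ESAM (0.964) and FILIP1 (0.941).

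Of the ligands, ANGPT2 ran with MUSTN1 (0.975), PARD6G (0.962) and LNX1 (0.953) in cattle and with CAV2 (0.98), SPARCL1 (0.96) and RHOJ (0.954) in pig. ANGPT1 ran with MEOX2 (0.974) and MYH8 (0.973) in cattle and with FAM81A (0.965) and FNBP1L (0.939) in pig, and pig VEGFA with SLC1A5 (0.881), IER3 (0.862) and COL3A1 (0.835). Cattle ANGPT1 stood at 0 CPM in Leydig-like, Sertoli-like, endothelial-like, lymphocyte-like and macrophage-like cells. It reached at most 3.41 CPM in the other named types, so its r rests on values near the floor. Cattle FLT1 and TIE1 had under 50 UMIs and were not compared.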

How the data were processed

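Single cells of 3 cattle and 3 pig testes were profiled with 10x Genomics v2 chemistry, 1 library per animal. The authors deposited raw UMI count matrices, made per the labels with Cell Ranger 2.1.0 on the builds ARS-UCD1.2 and Sscrofa11.1, whereas the pig file headers name a later release. Each cattle matrix held 737280 barcodes, but those of pigs 1, 2 and 3 held 6220, 22920 and 8808, so low barcodes had been left out of the pig files. Free RNA was thus measured in cattle only, and its part in the pig levels was not tested. Cells were called by the Cell Ranger 2 rule for 3000 expected cells with at least 200 genes, and the highest Scrublet scores (0.8% per 1000 cells) were left out as doublets. In scanpy 1.11.5, 2000 variable genes, 30 principal components, 15 neighbours and Leiden resolution 1 gave clusters. These were named from at least 3 markers. The naming rule and the blood vessel genes that helped to name sub-clusters (VWF, CLEC14A and ESAM) were set after values were seen, and the members and gene lists were chosen with earlier results of these data known. Rebuilt names can differ from those of the study.

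Counts were summed per animal for a type (at least 10 cells) and for all other cells. For types other than endothelial-like, these held the endothelial-like cells unless they are said to be left out. A lower call there does not tell low levels in the type from high levels in endothelial-like cells. Endothelial-like cells against other cells took all 3 animals, although pig 1 had 3 such cells, but their species comparison left out pig 1. The sums were tested with edgeR 4.0.16 (quasi-likelihood, TMM, genes with at least 10 counts, Benjamini-Hochberg at 0.05 over all genes), with R 4.3.3. The steps were tested on simulated endothelial-like comparisons with 200 changed genes. Of 2-fold changes, 0% were called in cattle and 0.5% in pig. Of 8-fold changes, 87% and 86.5% were called, with 4.92% and 8.47% of the calls false. The changed genes had at least 200 counts, whereas cattle KDR, FLT1, TIE1, TEK and ANGPT1 had 160, 46, 37, 113 and 64 UMIs. The called shares thus do not hold for those members. A member that was not called can differ by 2-fold or by much more, as cattle FLT1 did at log2 3.61. Alternatives used DESeq2 1.42.0, other scalings, cell rules and left-out animals. Both sums of a testis come from the same animal, and their deviations correlated (r 0.114 to 0.607). The main fits held no term for the animal and so ignored this pairing. A call that missed the threshold there can pass in a paired fit. Blocked values are given for some of the calls that changed with the animal as a block, not for all. Unequal depth limits low genes, and intervals and limits for a count of 0 (3 counts) cover counting error only. The named genes were the 7 members, the ligands and receptors of the pathway, its other genes that passed, and the 3 genes most alike with at least 50 UMIs.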

Additional observations from a re-analysis of the deposited data

Results flagged for a closer look

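The effect of cell type differed between the species, by the interaction of species and cell type in edgeR, for 5 results, given as pig minus cattle on the log2 scale. In germ-like cells these were FLT1 at -7.06, KDR at -5.56, TIE1 at -4.20 and TEK at -3.71. The germ-like levels were closer, with TIE1 at a mean of 5.58 CPM in pig and 5.08 CPM in cattle and TEK at 5.98 and 8.53 CPM, while TIE1 outside the endothelial-like cells stood at 5.59 CPM in pig and 0.635 CPM in cattle. In myoid and stromal-like cells it was ANGPT1 at -3.40 (SE 0.823, adjusted p = 0.0392), where 2% of all genes differed with the larger effect in cattle. The ANGPT1 call was lost without any single animal (adjusted p 0.0523 to 0.345), with library size alone (0.0693) and with endothelial-like cells left out (0.0511). Species, gene annotation and library cannot be told apart in these differences.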

How the results depend on the processing

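Of the results for single members, 275 kept their direction and side of the threshold under an alternative, 25 gained a call, 79 lost one and 1 changed sign: cattle ANGPT2, at log2 -0.613 without lymphatic-like cells. Genes called in cattle endothelial-like cells went from 616 to 1148 with cells chosen by markers, 938 with DESeq2, 1040 with all genes, 1173 with the replicate block, 133 without lymphatic-like cells, and 278 to 1104 with an animal left out. The 3 cattle members called became 5 with a single fit of all types, library size alone, DESeq2 or all genes, and 3 to 5 with an animal left out. In pig 3336 genes became 1266 at 500 UMIs per cell, 731 by markers, 1158 with DESeq2, 5791 with the replicate block and 1055 to 3184 with an animal left out, with 5 to 7 members called against 6. At 500 UMIs, mean pig levels in endothelial-like cells were 96.4 CPM for KDR, 74.6 for FLT1, 51.3 for TEK and 13.6 for ANGPT1. Pig 1 then entered with 15 cells and no UMI of these genes. Pig 2 had 2836 barcodes named endothelial-like in place of 360, with KDR at 96.8 CPM. That setting kept 18714 barcodes of pig 2, and 11599 and 11907 of cattle 2 and 3, more than the about 8000 cells loaded, so they cannot all be cells. In the main setting cattle 2 kept 8138 barcodes, also above that number, so some of those may not be cells either. Species differences in endothelial-like cells went from 129 genes to 521 with the replicate block and 36 to 204 with an animal left out, with 0 members. Member calls in the other types were 16 in cattle (2 to 17 with an animal left out) and 9 in pig (29 with the replicate block, 0 to 11 with an animal left out), and 5 between species (8 with the replicate block, 3 with endothelial-like cells left out, 0 to 4 with an animal left out). The cause of these shifts was not tested. Scaling by library size alone moved the share of calls that were higher from 45.7% to 61.1% in pig germ-like, 41.6% to 22.8% in cattle and 42.6% to 19.8% in pig Sertoli-like, 45% to 28.4% in cattle myoid and stromal-like and 55.8% to 31.7% in pig macrophage-like cells. Cattle endothelial-like cells held few UMIs of FLT1, TIE1 and TEK, which limits those results.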

Other observations

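Of the pig cells with endothelial genes, 2 clusters stayed unnamed, since they carried markers of 2 classes. A cluster of 53 cells held KDR at 147 CPM (107 to 197), FLT1 at 105 CPM (71.6 to 148), TEK at 101 CPM (68.9 to 144) and ANGPT2 at 72.0 CPM (45.1 to 109). The other, of 30 cells, held KDR at 90.2 CPM (50.5 to 149). Another unnamed cluster, of 155 cells and 92.3% from pig 3, with leading genes shared by 2 classes, held TEK at 44.6 CPM (29.9 to 64.0) with no UMI of KDR, FLT1 or TIE1, which allows up to 5.67 CPM of each. The intervals are exact Poisson 95% intervals.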
